A study of Mus musculus with 12 samples.

Results

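Pericentral Wnt target genes are genes that hepatocytes around the central vein of the liver lobule use under Wnt and β-catenin signalling, and 10 of them were followed here in mouse liver. They are *Glul*, *Axin2*, *Lgr5*, *Tbx3*, *Rnf43*, *Znrf3*, *Nkd1*, *Rhbg*, *Lect2* and *Slc1a2*, taken by symbol from a table of 48795 genes. Each symbol matched 1 row, and all 10 were among the 13812 genes with enough counts to be tested. RNA came from the livers of 12 female mice, 3 per group, in 4 groups set by genotype label (NTS WT or NTS KO) and feeding state (fed ad libitum, or without food for 22 h). The mice were 4 months old, ate normal chow and carry the same batch label, and the 2 genotypes are described as matched littermates. The animals labelled NTS KO are described as lacking neurotensin, a gut and brain peptide encoded by *Nts*, in the whole body. *Nts* was nevertheless counted only in their livers, as given below, and the reason was not tested. The livers labelled NTS WT came from mice 254, 257 and 323 (fed) and 265, 282 and 322 (fasted), and those labelled NTS KO from mice 277, 303 and 319 (fed) and 284, 290 and 295 (fasted).

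In the liver, endothelial cells of the central vein release Wnt ligands and R-spondins, and β-catenin with its TCF partners then drives a set of genes in the nearest hepatocytes. The set includes enzymes and transporters for ammonia and glutamate, and also inhibitors that feed back on the pathway. Hepatocytes at the other end of the lobule, around the portal vein, use a different set that holds most urea cycle and gluconeogenic enzymes. Whole liver was sequenced, so fewer cells of a type and less RNA per cell cannot be told apart.

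Libraries held between 21999647 and 45273069 counts, so that a limit of 3 counts equals 0.0663 to 0.136 CPM, where CPM divides each count by the total of its library and so makes levels comparable. Levels of single genes are CPM after TMM scaling, which adjusts for differences in library composition. Sums of markers are plain CPM on the library total, without TMM scaling. *Nts* was counted 0 times in each of the 6 livers labelled NTS WT and between 4 and 46 times in each of the 6 labelled NTS KO. Taken at face value these counts are the reverse of the labels. Neurotensin is described as a peptide of gut and brain, and gene counts do not tell an intact *Nts* transcript from an altered one. Whether the labels are right was not tested. Groups are called WT-labelled and KO-labelled throughout, and every direction between genotypes is that of the deposited labels. Markers of hepatocytes summed to between 137000 and 170000 CPM in every library. Of the markers of other organs, *Lep* and *Retn* (fat), *Cpa1*, *Pnlip*, *Ctrb1* and *Cel* (pancreas) and *Acta1* and *Myh4* (muscle) were at 0 in all 12. The others were not all absent. Fat markers summed to 0.147 to 1.27 CPM in fed and 37.8 to 68.9 CPM in fasted livers. Pancreas markers summed to 7.73 to 13.7 CPM in fed and 2.72 to 5.16 CPM in fasted livers. Of 6 markers each, only *Cidec* (fat) and *Cela1* (pancreas) were expressed enough to be tested. Whether this RNA came from other tissue or from liver cells was not tested. One KO-labelled fed liver, mouse 319, stood apart in the members themselves. It was the lowest of the 12 livers for 7 of the 10 genes, and values of the members without it are given beside those that it moved most.

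*Glul* encodes glutamine synthetase, which captures ammonia in the last hepatocytes before the central vein, and it was the most abundant member. Per kilobase of its longest coding transcript its median level was 339 CPM, followed by *Lect2* at 81.0 and *Slc1a2* at 13.1 CPM per kilobase. *Lect2* encodes a secreted hepatocyte protein, and *Slc1a2* encodes the glutamate transporter GLT-1. Each of these 3 was above the next gene in all 12 livers. The transcription factor gene *Tbx3* followed at 7.21 CPM per kilobase and was above *Rhbg*, which encodes an ammonium transporter, in 10 of 12 livers. *Rhbg* (4.62) and the ubiquitin ligase gene *Rnf43* (4.20 CPM per kilobase) could not be ordered, each being the higher in 6 livers. *Rnf43* was above *Axin2* in all 12. The last 4 were *Axin2*, a scaffold of the β-catenin destruction complex, at 1.88, the R-spondin receptor gene *Lgr5* at 1.44, the ubiquitin ligase gene *Znrf3* at 1.36 and *Nkd1*, an inhibitor of Dishevelled, at 1.21 CPM per kilobase. *Axin2* was above *Lgr5* in 9 livers, *Lgr5* above *Znrf3* in 7 and *Znrf3* above *Nkd1* in 6. With the median length of coding transcripts in place of the longest, *Nkd1* (1.84) stood above *Znrf3* (1.77 CPM per kilobase).

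Windows from 250 bases before to 50 bases after an annotated start site were at hand for 6 of the 10 members, *Glul*, *Slc1a2*, *Nkd1*, *Rnf43*, *Axin2* and *Lect2*, from RefSeq on GRCm38.p6. They were searched on both strands for CTTTGAT and CTTTGAA, the core letters that TCF proteins are known to bind. Of the 7 windows of these genes (*Rnf43* has 2), those of *Slc1a2* and *Lect2* held a match, each to CTTTGAT on the opposite strand. For comparison, 8.65% of all 32851 windows held either motif, 3.73% the first and 5.13% the second. The match lies 207 to 201 bases before the start site in *Slc1a2* and 32 to 26 bases before it in *Lect2*. A match is a description of letters and not a bound site. The start site lies 47779 bases inside the gene as deposited for *Slc1a2*, 6279 for *Nkd1* and 37175 for one window of *Rnf43*, and which start the liver uses was not tested. The window of *Nkd1* is shown beside them and held no match. It was picked as the only member called lower on fasting over both labels. *Lect2*, which holds a match, was also negative there (-0.24) but not called. *Glul*, *Rnf43* and *Axin2* held no match either, and whether a match goes with a direction was not tested. Capitals mark the match, and each window reads along the strand of its gene, chr2:102706188-102706487 (plus strand) for *Slc1a2*, chr13:56548489-56548788 (minus strand) for *Lect2* and chr8:88527383-88527682 (plus strand) for *Nkd1*.
Slc1a2: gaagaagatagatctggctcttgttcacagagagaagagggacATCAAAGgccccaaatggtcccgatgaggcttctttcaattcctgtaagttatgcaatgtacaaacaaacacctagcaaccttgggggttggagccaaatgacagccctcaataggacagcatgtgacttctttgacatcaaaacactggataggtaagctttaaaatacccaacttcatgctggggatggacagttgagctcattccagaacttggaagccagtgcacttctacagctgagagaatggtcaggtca
Lect2: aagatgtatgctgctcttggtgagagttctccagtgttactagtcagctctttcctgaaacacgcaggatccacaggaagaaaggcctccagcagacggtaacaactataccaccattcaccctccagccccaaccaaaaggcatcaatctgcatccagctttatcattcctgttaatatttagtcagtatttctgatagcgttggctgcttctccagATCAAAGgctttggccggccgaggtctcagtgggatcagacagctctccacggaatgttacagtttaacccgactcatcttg
Nkd1: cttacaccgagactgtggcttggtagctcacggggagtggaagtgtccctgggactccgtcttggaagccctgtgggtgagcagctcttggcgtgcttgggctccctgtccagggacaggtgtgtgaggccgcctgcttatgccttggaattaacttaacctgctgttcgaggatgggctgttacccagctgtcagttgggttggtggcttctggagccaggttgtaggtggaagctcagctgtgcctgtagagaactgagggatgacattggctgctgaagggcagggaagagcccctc

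**Figure D1:**
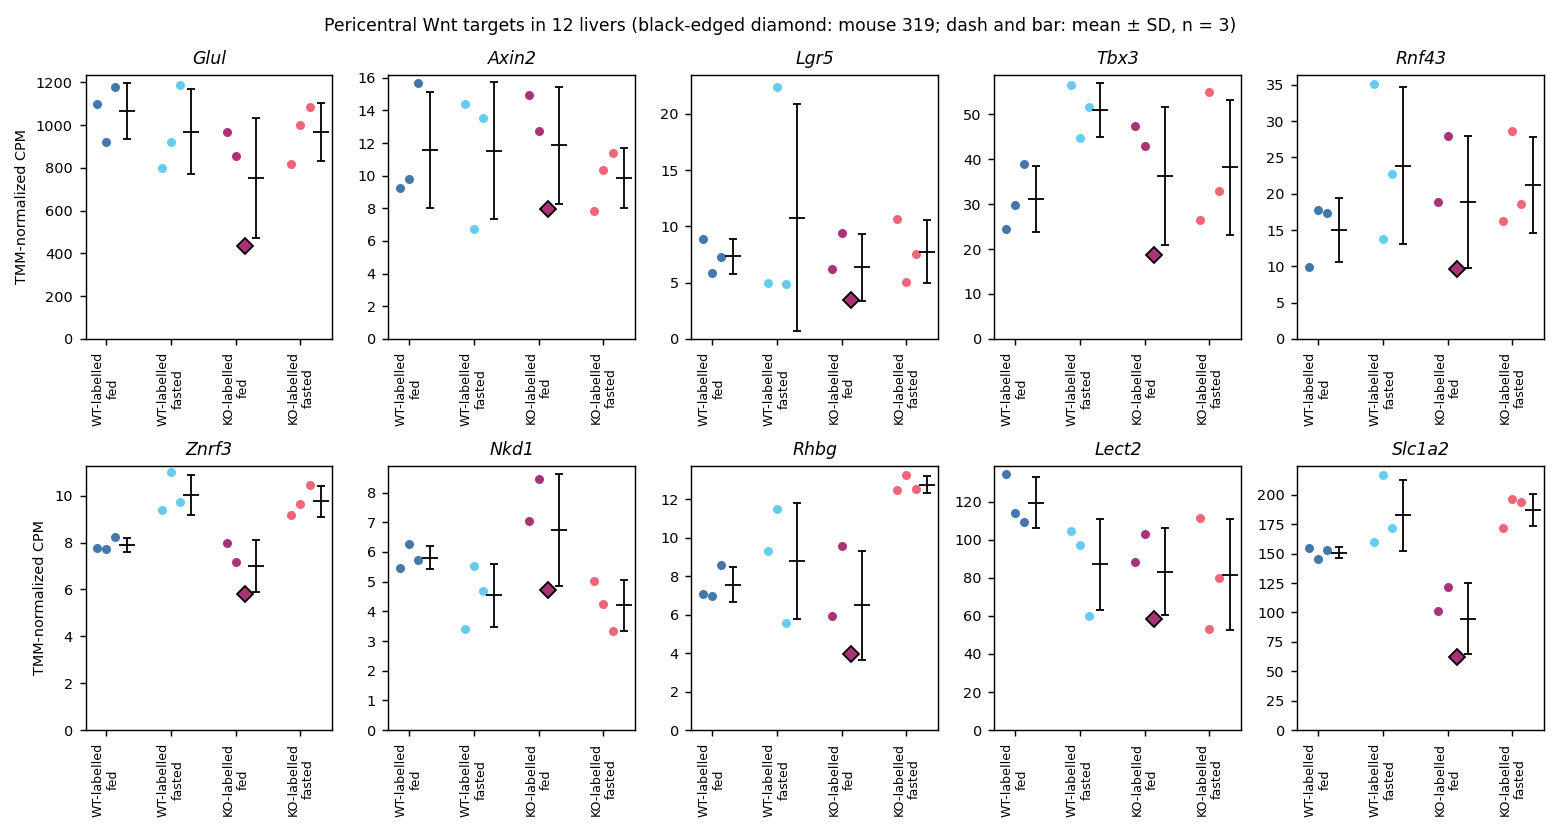
TMM-normalized CPM (vertical axes, each from 0) of the 10 genes in the 12 livers, by genotype label and feeding state (horizontal axes). Points are mice, the dash and bar are the mean ± SD of 3 mice, and the black-edged diamond is mouse 319, which lies lowest of the 12 in 7 panels. *Slc1a2* and *Znrf3* lie higher in every fasted liver than in any fed liver.

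The first question was what 22 h without food did to these genes. Across both genotype labels, 3 members were higher in fasted livers (*Slc1a2*, *Znrf3* and *Rhbg*) and 1 was lower (*Nkd1*), and 6 did not pass the test. *Slc1a2* rose 1.55-fold and *Znrf3* 1.33-fold, and for both of them every fasted liver was above every fed liver, 2 of 10 against 15.9% of all tested genes whose fed and fasted livers did not overlap. *Rhbg* rose 1.51-fold, and *Nkd1* fell to 0.697 of its fed level. These 4 of 10 compare with 32.8% of all tested genes at an adjusted *p* under 0.05 in edgeR's quasi-likelihood test (16% higher, 16.8% lower; 42.6% at an unadjusted *p* under 0.05, where the members were the same 4), a share near that of the members. The median log2 fold change of the 10 was 0.40, against -0.01 over all 13812 genes, and 7 of 10 were positive. Without mouse 319 the median was 0.25, and 6 of 10 were positive. The pooled contrast holds the same mice as the contrasts within each label and is not independent of them.

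*Slc1a2* carries glutamate into the cell, where glutamine synthetase uses it. Its levels in WT-labelled livers were 145.3, 152.7 and 154.4 CPM when fed and 159.6, 171.8 and 216.8 CPM when fasted. The groups did not overlap, but the log2 fold change of 0.28 (SE 0.20, adjusted *p* = 0.361) did not pass. In KO-labelled livers the levels were 61.84, 101.3 and 121.4 CPM when fed and 171.8, 194.1 and 196.3 CPM when fasted. The KO-labelled fasted mean was 187.4 ± 13.5 CPM (SD, n = 3), 1.98 times the fed mean of 94.84 ± 30.3 CPM, with a log2 fold change of 0.98 (SE 0.20, edgeR adjusted *p* = 0.0051). Over both labels the log2 fold change was 0.63 (SE 0.14, adjusted *p* = 0.00386). Without mouse 319 these were 0.75 (adjusted *p* = 0.00549) within the KO label and 0.52 (adjusted *p* = 0.00201) over both, and both calls held under every alternative tried.

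*Rhbg* encodes a membrane protein that moves ammonia, the other substrate of glutamine synthetase. Fed levels were 6.99, 7.06 and 8.60 CPM in WT-labelled and 3.95, 5.95 and 9.56 CPM in KO-labelled livers. Fasted levels were 5.56, 9.30 and 11.5 CPM in WT-labelled livers, which overlapped the fed ones, and 12.5, 12.5 and 13.3 CPM in KO-labelled livers, all above the fed ones. The log2 fold change was 0.22 (SE 0.29, adjusted *p* = 0.649) within the WT label, 0.97 (SE 0.29, adjusted *p* = 0.0378) within the KO label and 0.59 (SE 0.21, adjusted *p* = 0.0422) over both. These calls lay near the threshold. Mice 254 and 257 are not in the KO-labelled contrast and bear on it only through the shared model (0.98 and 0.97 without them). Without mouse 254, 257, 277, 319, 284, 290 or 295 the KO-labelled call was lost (log2 fold change 0.72 to 0.99, edgeR adjusted *p* = 0.0507 to 0.126), and the value without mouse 319 was 0.72 (adjusted *p* = 0.0832). The pooled call was lost without any of 9 mice, the exceptions being 323, 322 and 303 (0.47 to 0.61, adjusted *p* = 0.065 to 0.107), and also with upper-quartile scaling (adjusted *p* = 0.0524) and with no filter on low counts (adjusted *p* = 0.0511). *Gm38392*, a gene model on the same stretch of the map, held 472 counts against 3019 on *Rhbg*, and the counting is not stated to use strand. With its counts added, the KO-labelled value was 1.01 (adjusted *p* = 0.0201).

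*Znrf3* and its partner *Rnf43* encode membrane ubiquitin ligases that remove Frizzled receptors, and R-spondins block them. *Znrf3* was at 7.73, 7.76 and 8.25 CPM in WT-labelled fed livers and at 9.39, 9.74 and 11.0 CPM in fasted ones. In KO-labelled livers it was at 5.80, 7.17 and 7.99 CPM when fed and at 9.16, 9.66 and 10.5 CPM when fasted. The fed and fasted groups did not overlap under either label. The log2 fold change was 0.35 (SE 0.14, adjusted *p* = 0.114) in WT-labelled, 0.48 (SE 0.14, adjusted *p* = 0.036) in KO-labelled and 0.41 (SE 0.10, adjusted *p* = 0.00711) in all livers. The pooled call held under every alternative and was 0.36 (adjusted *p* = 0.0119) without mouse 319. The KO-labelled call was lost without mouse 303, 319, 284, 290 or 295 (0.37 to 0.53, adjusted *p* = 0.0592 to 0.108), with no filter on low counts (adjusted *p* = 0.0681) and with only the 2 groups compared (adjusted *p* = 0.0771). *Rnf43* spread far more. It was at 9.97, 17.3 and 17.8 CPM in WT-labelled fed, 13.7, 22.8 and 35.2 in WT-labelled fasted, 9.67, 18.9 and 27.9 in KO-labelled fed and 16.2, 18.6 and 28.7 CPM in KO-labelled fasted livers. All of these groups overlapped, and the pooled fasting value was 0.42 (SE 0.31, adjusted *p* = 0.343), and 0.26 without mouse 319.

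*Nkd1* is switched on by Wnt signalling and inhibits Dishevelled, which relays the signal. Its fed levels were 5.47, 5.72 and 6.25 CPM in WT-labelled and 4.71, 7.04 and 8.47 CPM in KO-labelled livers. Its fasted levels were 3.42, 4.69 and 5.52 CPM and 3.33, 4.24 and 5.04 CPM. The groups overlapped under both labels. Fasting values were -0.35 (SE 0.24, adjusted *p* = 0.335) for WT-labelled, -0.69 (SE 0.24, adjusted *p* = 0.0615) for KO-labelled and -0.52 (SE 0.17, adjusted *p* = 0.029) for all livers. The pooled call was lost without mouse 257, 265, 277, 303, 290 or 295 (-0.52 to -0.42, adjusted *p* = 0.053 to 0.0773). Without mouse 319, in which *Nkd1* was the lowest of its group, the KO-labelled value became -0.89 and passed (adjusted *p* = 0.0167). *Nkd1* and *Znrf3*, both feedback inhibitors of the pathway, moved in opposite directions in the pooled contrast.

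*Axin2*, another feedback inhibitor, lay between 6.71 and 15.7 CPM with no order by group. Its group means were 11.6 ± 3.53 (WT-labelled fed), 11.5 ± 4.20 (WT-labelled fasted), 11.9 ± 3.57 (KO-labelled fed) and 9.86 ± 1.84 CPM (KO-labelled fasted, SD, n = 3 each). Its pooled fasting log2 fold change was -0.13 (95% interval -0.62 to 0.35, adjusted *p* = 0.68), and -0.24 without mouse 319. *Tbx3*, whose product is a T-box repressor, was at 24.5, 29.8 and 39.0 CPM in WT-labelled fed and 44.7, 51.7 and 56.6 CPM in WT-labelled fasted livers, which did not overlap. The log2 fold change of 0.72 (SE 0.35, adjusted *p* = 0.186) did not pass, but it did when only these 6 livers were fitted (0.71, adjusted *p* = 0.0253). In KO-labelled livers *Tbx3* was at 18.7, 42.9 and 47.4 CPM when fed and 26.5, 33.0 and 55.0 CPM when fasted. Those groups overlapped, with a log2 fold change of 0.07 (SE 0.35, adjusted *p* = 0.921) that turned to -0.24 without mouse 319.

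*Glul* itself did not pass in any fasting contrast. It was at 922.9, 1099 and 1180 CPM in WT-labelled fed, 799.2, 922.9 and 1188 in WT-labelled fasted, 436.3, 856.7 and 969.8 in KO-labelled fed and 820.4, 1000.0 and 1087 CPM in KO-labelled fasted livers. Apart from the 436.3 CPM of mouse 319, every liver lay between 799.2 and 1188 CPM. Fasting values were -0.14 (SE 0.25, adjusted *p* = 0.744) and 0.36 (SE 0.25, adjusted *p* = 0.355) within the labels, and the second was 0.09 without mouse 319. *Lect2* was at 109.5, 113.9 and 134.7 CPM in WT-labelled fed livers, above the 59.98, 97.17 and 104.5 CPM of WT-labelled fasted ones. It was at 58.22, 88.42 and 103.1 CPM in KO-labelled fed and 53.34, 79.87 and 111.5 CPM in KO-labelled fasted livers. Neither fasting value passed (-0.45, SE 0.29, adjusted *p* = 0.3, and -0.03, SE 0.29, adjusted *p* = 0.958), and the second was -0.23 without mouse 319.

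*Lgr5* marks the innermost hepatocytes and rested on 1 liver. Mouse 282, fasted and WT-labelled, had 22.4 CPM (678 counts), and the other two of its group had 4.91 and 4.93 CPM. The same liver was the lowest of all 12 for *Axin2*, at 6.71 CPM. Fed WT-labelled livers had 5.81, 7.32 and 8.86 CPM, KO-labelled fed livers 3.47, 6.22 and 9.41 CPM, and KO-labelled fasted livers 5.07, 7.51 and 10.7 CPM of *Lgr5*. The fasting value in WT-labelled livers was 0.56 (SE 0.61, adjusted *p* = 0.571), and it turned to -0.58 (adjusted *p* = 0.392) without mouse 282.

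Within WT-labelled livers 0 of the 10 members passed, while 18.1% of all tested genes did (8.91% higher and 9.19% lower). At an unadjusted *p* under 0.05 it was 1 of 10 (*Znrf3*) against 32.5%, and DESeq2 called 0 members and 2881 of all genes. Groups did not overlap for 4 of 10 (*Tbx3*, *Znrf3*, *Lect2* and *Slc1a2*), near the 36% of all genes. Within KO-labelled livers 3 of 10 passed (*Slc1a2*, *Rhbg* and *Znrf3*, all higher), against 16.8% of all genes (7.7% higher and 9.14% lower). At an unadjusted *p* under 0.05 it was 4 of 10, with *Nkd1* added, near the 31.7% of all genes, and DESeq2 called the same 4 and 2788 of all genes. Groups did not overlap for these 3, near the 35.2% of all genes, and without mouse 319 the members that passed were 2, *Slc1a2* and *Nkd1*. Passing under one label and not the other does not show a difference between the labels, which was tested directly.

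**Figure D2:**
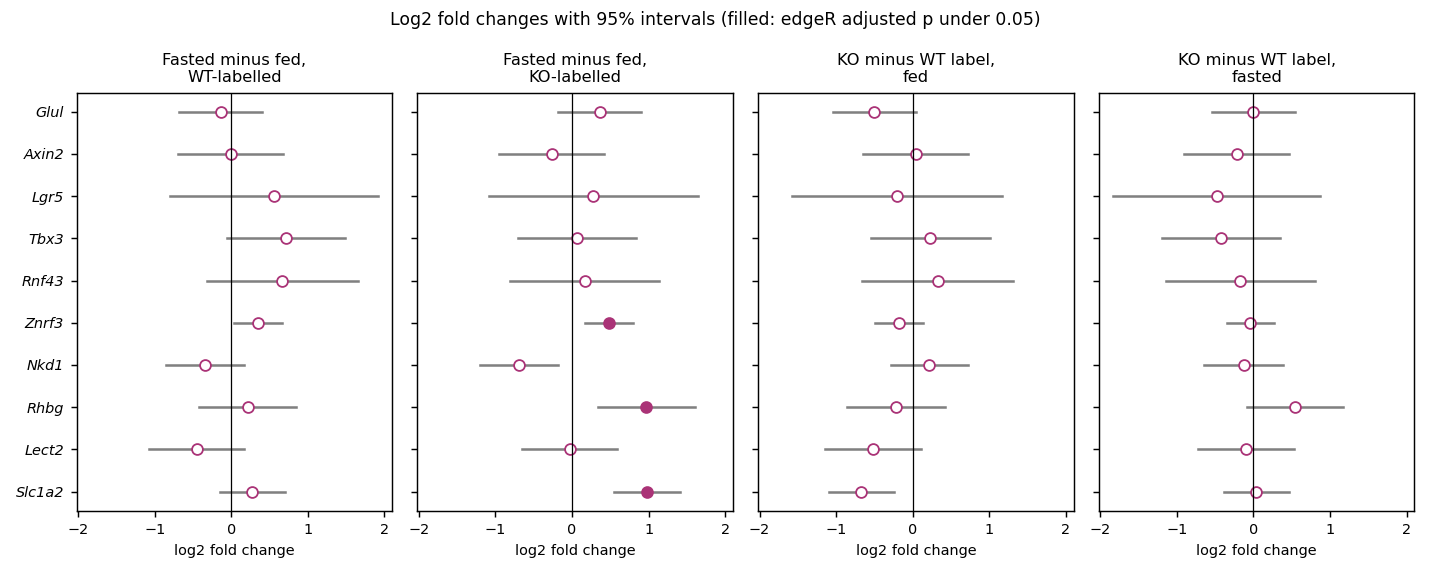
Log2 fold changes (horizontal axes) with 95% intervals for the 10 genes (rows) in 4 contrasts, from edgeR. Filled points have an adjusted *p* under 0.05. They are *Znrf3*, *Rhbg* and *Slc1a2* on fasting in KO-labelled livers, and the panels for the genotype label hold none.

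The second question was whether the genotype label mattered. In fed livers 0 of 10 members passed in edgeR, nor did any other tested gene (0%), and DESeq2 called 0 members and 12 of all genes. At an unadjusted *p* under 0.05 there was 1 member, *Slc1a2*, against 6.34% of all genes. The *Slc1a2* levels of KO-labelled fed livers (61.84 to 121.4 CPM) lay below all those of WT-labelled ones (145.3 to 154.4 CPM). The log2 fold change was -0.67 (SE 0.20, unadjusted *p* = 0.0048 in edgeR, adjusted *p* = 0.734), and it was -0.44 (adjusted *p* = 0.301) without mouse 319. *Lect2* also did not overlap between the fed groups (-0.52, SE 0.29, adjusted *p* = 0.792, and -0.32 without mouse 319). These 2 of 10 compare with 10.7% of all genes whose groups did not overlap. *Glul* was at -0.50 (95% interval -1.04 to 0.04, adjusted *p* = 0.777) and at -0.23 without mouse 319.

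In fasted livers 0 of 10 members passed, nor did any other gene (0%), and DESeq2 called 0 members and 4 of all genes. None of the 10 had an unadjusted *p* under 0.05, against 4.96% of all genes. *Rhbg* was the member whose groups did not overlap, at 5.56 to 11.5 CPM in WT-labelled and 12.5 to 13.3 CPM in KO-labelled livers (0.54, SE 0.29, adjusted *p* = 0.917), and 12.2% of all genes did not overlap. *Glul* means were 970.1 ± 199 and 969.2 ± 136 CPM, a log2 fold change of 0.00 with a 95% interval from -0.54 to 0.54. For *Slc1a2* the value was 0.04 (95% interval -0.39 to 0.46). Averaged over both feeding states, 0 of 10 members and 0% of all genes passed. At an unadjusted *p* under 0.05 it was 1 member, again *Slc1a2* (-0.32, SE 0.14, adjusted *p* = 0.77), against 6.22% of all genes. Without mouse 319 it was -0.20, with an unadjusted *p* of 0.0665 in edgeR.

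The difference between the fasting responses of both labels was then tested. Here too 0 of 10 members and 0% of all genes passed in edgeR, and DESeq2 called 0 members and 3 of all genes. *Slc1a2* had the smallest *p* of the members, with a response larger by 0.71 under the KO label (SE 0.28, unadjusted *p* = 0.025 in edgeR, adjusted *p* = 0.897), where 4.8% of all genes had an unadjusted *p* under 0.05. Without mouse 319 the difference was 0.47 (adjusted *p* = 0.4). For *Rhbg* it was 0.76 (95% interval -0.14 to 1.65, adjusted *p* = 0.897), for *Tbx3* -0.65 (-1.74 to 0.44) and for *Glul* 0.50 (-0.26 to 1.26). Without mouse 319 these 3 were 0.51, -0.96 and 0.22. *Tbx3* (SE 0.37, unadjusted *p* = 0.0256 in edgeR, adjusted *p* = 0.374) then had the smallest *p* of the members, ahead of *Slc1a2* (unadjusted *p* = 0.0344 in edgeR). The intervals given, with all mice, are wide, so that neither equal nor unequal responses were shown.

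Within groups, 9 of the 10 members varied more than the median gene, and 7 of 10 without mouse 319. The SD of log2 CPM within groups was 0.78 for *Lgr5*, 0.60 for *Rnf43*, 0.49 for *Tbx3*, 0.46 for *Axin2*, 0.42 for *Rhbg*, 0.41 for *Lect2* and 0.37 for *Glul*, against a median of 0.24 over all tested genes. *Nkd1* (0.32) and *Slc1a2* (0.28) were nearer that median. *Znrf3* was the one member below it, at 0.14, and 15.4% of tested genes were less variable. *Lgr5* was more variable than 95.7% of them. Without mouse 319 the SD was 0.76 for *Lgr5*, 0.52 for *Rnf43*, 0.35 for *Tbx3*, 0.22 for *Glul* and 0.155 for *Slc1a2*, against a median of 0.22, and *Glul*, *Slc1a2* and *Znrf3* (0.096) were then the members below it.

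**Figure D3:**
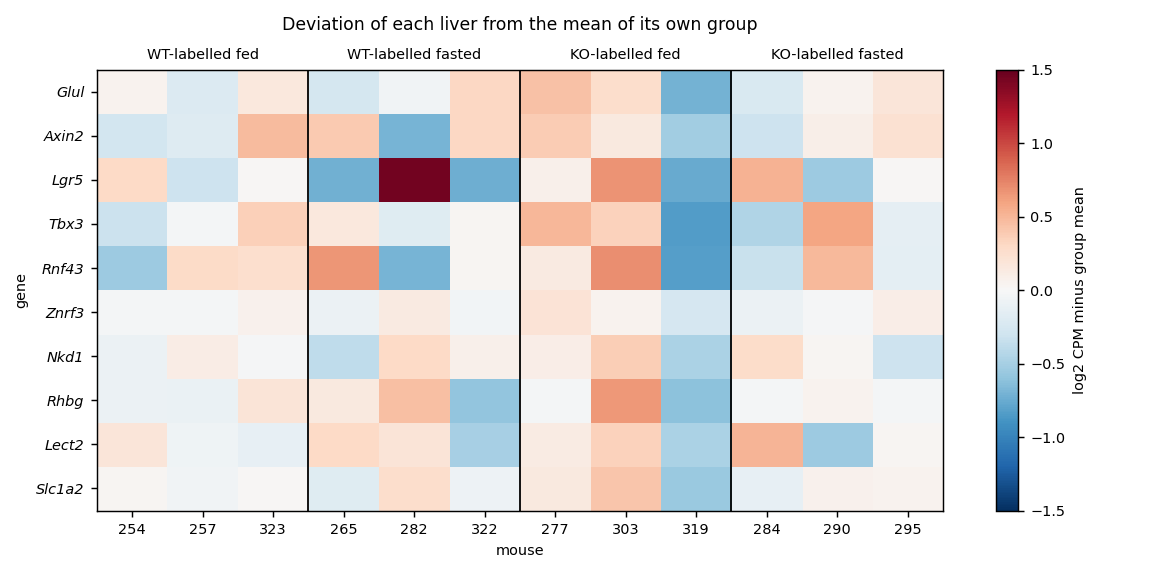
Log2 CPM of each of the 10 genes (rows) in each of the 12 livers (columns) minus the mean of its own group, from blue (below) to red (above). All 10 cells of mouse 319 are blue, and the darkest red cell is *Lgr5* in mouse 282.

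Mouse 319 stood apart across the whole set. Its 10 members were all below their group mean, by a median of 0.59 on the log2 scale, from *Znrf3* (-0.25) to *Tbx3* (-0.84). In the other 11 livers the median deviation of the members lay between -0.11 (mouse 284) and 0.36 (mouse 303, of the same group, whose mean mouse 319 lowers). The same liver was below its group mean for 18 of 18 other pericentral genes, such as *Cyp2e1* and *Oat*, with a median deviation of -0.47. For the receptors of the pathway it was 10 of 11 (median -0.31), for Wnt and R-spondin ligands 6 of 9 (-0.31), for the β-catenin, destruction complex and TCF genes 12 of 23 (-0.03) and for antagonists 4 of 9 (0.16). Periportal genes went the other way, with 3 of 20 below the mean and a median of 0.16, and so did hepatocyte markers (1 of 10, 0.13). *Alb* is in both of these lists. Endothelial markers were below it in 12 of 14 cases (-0.18), Kupffer cell markers in 6 of 10 (-0.22), stellate cell markers in 6 of 10 (-0.13) and red blood cell markers in 0 of 5 (0.62). Over all 13812 genes 51.7% were below, with a median of -0.01. The library of mouse 319 held 24050989 counts, within the range of the others. Other livers lay as far out in some lists, mouse 323 for endothelial (12 of 14, -0.23) and mouse 282 for Kupffer cell markers (10 of 10, -0.30). So did mouse 265 for periportal genes (2 of 20, 0.33) and mouse 295 for red blood cell markers (0 of 5, 0.65). For other pericentral genes the other 11 livers ran from -0.24 to 0.33. Their lowest value was -0.21 for receptors and -0.09 for ligands. The part of these lists or of depth in the low members of mouse 319 was not tested.

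**Figure D4:**
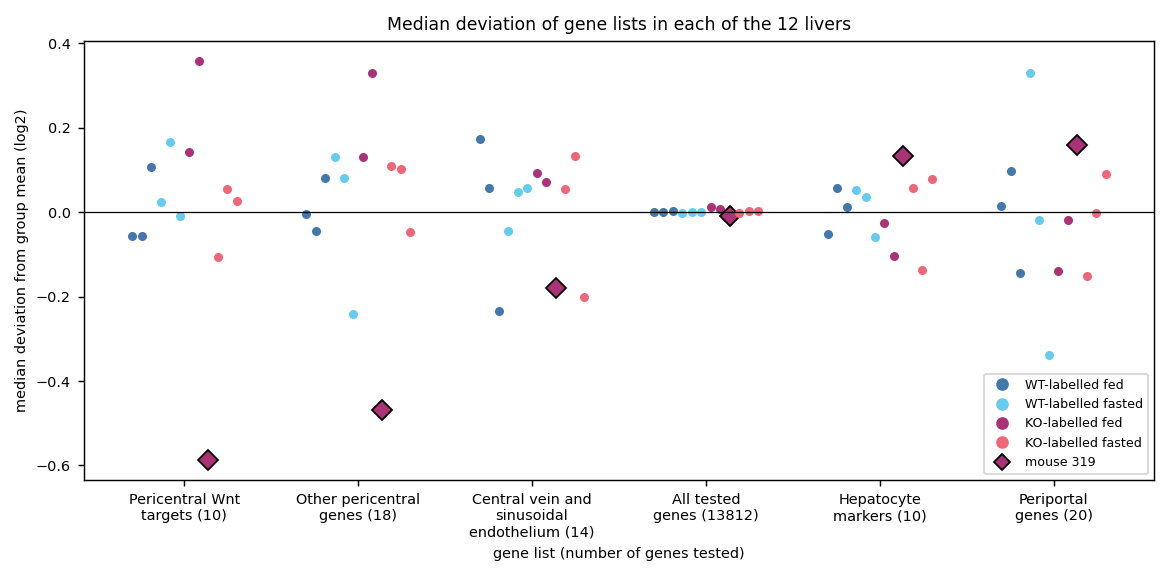
Median deviation from the group mean on the log2 scale (vertical axis) of 6 gene lists in each of the 12 livers, with the number of genes tested in brackets. Mouse 319 (diamond) lies at -0.59 for the Wnt targets and -0.47 for other pericentral genes, near 0 for all genes, and above 0 for hepatocyte markers and periportal genes.

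The members varied together over the 12 livers, and no longer did over the 11 without mouse 319. After the group means were taken off, Pearson's r over the 12 livers was positive for 39 of the 45 pairs of members, with a median of 0.47. Without mouse 319 it was positive for 22 of 45, with a median of -0.02. Between members and other pericentral genes the median r was 0.47 (167 of 180 pairs positive), and 0.07 (101 of 180) without the mouse. Between members and periportal genes it was -0.19 (66 of 200 positive), and -0.01 (96 of 200) without it. Against all other tested genes the median was 0.02. The points share 4 group means and the scaling of each library, so these values are descriptions. Some pairs stayed above 0.5 without mouse 319, among them *Tbx3* and *Rnf43* (r = 0.82, and 0.70 without it), *Rhbg* and *Slc1a2* (0.79 and 0.62) and *Znrf3* and *Slc1a2* (0.83 and 0.50). *Glul* and *Slc1a2* did not (0.77 and 0.18). Other pairs ran opposite to each other without mouse 319. The lowest were *Axin2* and *Lgr5* (-0.42 and -0.80), *Lgr5* and *Rnf43* (-0.29 and -0.73) and *Tbx3* and *Lect2* (-0.05 and -0.72).

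Most like *Glul* among all tested genes, over the same 12 livers and after the same centring, were *Rps6ka4* (r = 0.967, Spearman's rho = 0.951), *Hacd4* (0.96 and 0.944) and *Slc16a13* (0.959 and 0.902). With mice 319 and 277 left out, which lay farthest from their group mean in *Glul*, r was 0.928, 0.891 and 0.899. Without mouse 319 alone, and with its group centred anew, r was 0.919, 0.886 and 0.862. Among the members *Znrf3* was nearest to *Glul* (r = 0.811) and stood at rank 129 of all tested genes, ahead of *Slc1a2* at 224 and *Tbx3* at 386. *Lect2* was the farthest, at r = 0.083. This order rested on mouse 319. Without it r was 0.476 for *Znrf3* (rank 1880), 0.407 for *Axin2*, 0.272 for *Tbx3*, 0.183 for *Slc1a2* (rank 4936) and -0.688 for *Lect2*.

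The rest of the pathway was read from fixed lists in the pooled fasting contrast, where 32.8% of all genes passed. Of 24 genes for Wnt and R-spondin ligands and their release, 9 were expressed enough to be tested, and 6 were at 0 in every library. The ligands best known from the endothelium of the central vein and sinusoids did not pass. *Wnt2* had a log2 fold change of 0.14 (SE 0.23, adjusted *p* = 0.669), *Wnt9b* 0.21 (SE 0.24, adjusted *p* = 0.534) and *Rspo3* -0.15 (SE 0.12, adjusted *p* = 0.358). *Wnt2* levels were 3.46, 3.99 and 4.61 CPM in WT-labelled fed and 1.33, 2.97 and 3.20 CPM in KO-labelled fed livers. These groups did not overlap, as for 10.7% of all genes, and the genotype value of -0.67 (SE 0.32, edgeR adjusted *p* = 0.777) did not pass. Between the same fed groups *Wnt9b* (-0.14) and *Rspo3* (-0.06) overlapped. *Wnt5a*, a ligand of the β-catenin-independent branch, rose 1.83-fold (0.87, adjusted *p* = 0.0203), and *Porcn*, which puts the lipid on Wnt proteins, fell to 0.565 of its fed level (-0.82, adjusted *p* = 0.00208). *Wls*, the carrier of Wnt proteins to the cell surface, was at -0.29 (adjusted *p* = 0.0629). Within the labels, 1 gene of this list was called higher and 0 lower in WT-labelled livers, and 0 higher and 1 lower in KO-labelled ones. The highest log2 fold change of the list was 1.41 in WT-labelled and 0.54 in KO-labelled livers.

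Of 17 receptor genes 11 were tested, and 3 rose and 0 fell. They were *Ryk* (0.35, adjusted *p* = 0.00607), the co-receptor *Lrp5* (0.40, adjusted *p* = 0.0135) and the Frizzled receptor *Fzd1* (0.53, adjusted *p* = 0.0238). Within the labels, 3 receptor genes were called higher in WT-labelled livers (median of the list 0.40) and 0 in KO-labelled ones (median 0). The difference between these responses ran from -0.67 to -0.10 over the 11 genes, with 0 called in edgeR and 0 at an unadjusted *p* under 0.05. Of 25 genes for β-catenin, its destruction complex and TCF partners 23 were tested, and 2 rose and 2 fell. Within the labels, 2 of this list were called higher and 0 lower in WT-labelled livers, and 0 higher and 2 lower in KO-labelled ones. *Ctnnb1*, which encodes β-catenin, was at 222.4 CPM in fed and 178.2 CPM in fasted livers, which did not overlap (-0.32, adjusted *p* = 0.00656). The kinase genes *Csnk1e* (0.47, adjusted *p* = 0.00994) and *Gsk3a* (0.37, adjusted *p* = 0.0103) rose. Of 20 antagonist genes 9 were tested, and 0 rose and 3 fell. They were the co-repressor genes *Tle2* (-1.42, adjusted *p* = 0.000828) and *Tle3* (-0.89, adjusted *p* = 0.00495), and *Sfrp1* (-1.91, adjusted *p* = 0.00697), which was below 0.4 CPM on average in both states. None of these genes passed in a contrast of genotype labels or in the difference between responses.

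Other genes of the pericentral zone also moved in both directions. Of 18 tested, 5 rose and 3 fell, from -1.47 to 1.89 on the log2 scale, where the 10 members spanned -0.52 to 0.63. With the smallest *p* were *Slc13a3*, a dicarboxylate transporter gene (-1.47, adjusted *p* = 6.39e-06), *Nr1i3*, which encodes the receptor CAR (1.08, adjusted *p* = 7.36e-06), and *Lhpp*, a phosphatase gene (1.54, adjusted *p* = 9.6e-06). Of 20 periportal genes 7 rose and 6 fell, from -1.28 to 1.34, and those named by the smallest *p* here both fell, the protease gene *Ctsc* (-1.16, adjusted *p* = 7.25e-06) and the cadherin gene *Cdh1* (-1.28, adjusted *p* = 2.31e-05). The median over the list was -0.15 for other pericentral and 0.02 for periportal genes. Markers of other liver cells moved with fasting as well. Endothelial markers summed to 262 to 364 CPM in fed and 203 to 256 CPM in fasted livers, with 1 higher and 6 lower of 14. Stellate cell markers summed to 267 to 365 and 208 to 232 CPM (0 higher and 7 lower of 10), and Kupffer cell markers to 480 to 772 and 348 to 645 CPM (0 higher and 4 lower of 10). For the Kupffer cell markers the median log2 fold change on fasting was -0.69 in WT-labelled livers (4 lower) and -0.02 in KO-labelled ones (0 called in edgeR and 2 at an unadjusted *p* under 0.05). The difference between these responses was positive for 10 of 10, with 0 called in edgeR and 5 at an unadjusted *p* under 0.05. Cholangiocyte markers summed to 46.5 to 65.9 and 27.1 to 39.4 CPM (0 higher and 1 lower of 5 tested), lymphocyte markers to 19.9 to 23 and 13.2 to 29 CPM (0 of 11 passed in edgeR and 1 had an unadjusted *p* under 0.05) and red blood cell markers to 270 to 648 and 228 to 562 CPM (0 higher and 1 lower of 5 tested). Of 6 fat and 6 pancreas markers, 1 each passed the filter on low counts, *Cidec* (6.85, adjusted *p* = 1.06e-06) and *Cela1* (-1.45, adjusted *p* = 3.73e-05), and muscle markers summed to 0.128 to 0.891 CPM. Of the hepatocyte markers 2 rose and 3 fell of 10. The part of any of these in the changes of the members was not tested.

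**Figure D5:**
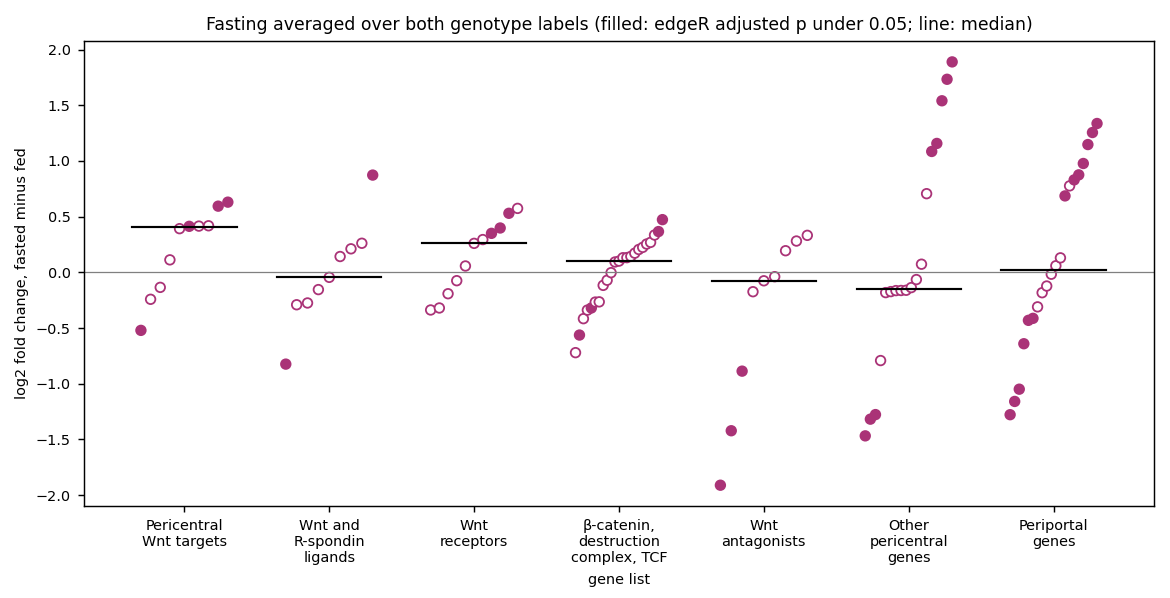
Log2 fold change on fasting averaged over both labels (vertical axis) for the tested genes of 7 lists (horizontal axis), with a line at each list's median. Filled points have an edgeR adjusted *p* under 0.05, 4 of 10 for the Wnt targets, whose median is 0.40.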

How the data were processed

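Total RNA of snap-frozen liver was sequenced in 12 mice. The authors deposited a single table with expected counts, that is, estimated reads for each gene, unscaled between mice and not always whole, with Ensembl identifiers, symbols and GRCm38 positions for 48795 genes. The submitters' processing notes name Trimmomatic and RSEM without versions, and their parameters and the strandedness are not given in the sources used here. No column belonged to other samples (0), and no row lacked an identifier (0), while 1220 genes had no symbol.

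Values were rounded first. With edgeR 4.0.16 in R 4.3.3, filterByExpr retained 13812 genes, which were scaled with TMM and fitted in 1 model with 4 group means (8 residual degrees of freedom, biological coefficient of variation 0.202) with robust quasi-likelihood tests. There were 7 contrasts. Adjusted *p* is the Benjamini-Hochberg value over all tested genes, called under 0.05, and intervals are at 95%. Deviations and correlations use log2 CPM with a prior count of 2. Replicates are separate mice, and groups of 3 give wide intervals. A limit of 3 counts covers counting error only.

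Named genes were all members, up to 3 genes of each pathway or zone list with the smallest *p* in the pooled fasting contrast, *Wnt2*, *Wnt9b* and *Rspo3*, the 3 genes most like *Glul*, and *Nts*. One gene that this rule names is not reported here. The 10 members and all lists were chosen with earlier results of these data known, and mice 319 and 282, *Cyp2e1* and *Oat* were singled out after their values were seen.

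Gene lengths, joined on the Ensembl identifier, are those of the longest protein-coding transcript of GENCODE vM39. Promoter windows are RefSeq's on GRCm38.p6. Steps were tested on simulated data. Alternatives were RLE and upper-quartile scaling, DESeq2 1.42.0 (Wald test), leaving out the filter on low counts, a minimum of 10 counts in each mouse, a fit of only the 2 groups compared, adjusted *p* under 0.10, leaving out each mouse and, chosen after seeing the data, *Rhbg* with the counts of *Gm38392* added. Markers of cholangiocytes, lymphocytes, fat, pancreas, muscle and red blood cells were summed beside those of hepatocytes, endothelium, Kupffer and stellate cells.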

Additional observations from a re-analysis of the deposited data

How the results depend on the processing

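Of 1370 log2 fold changes recomputed under the alternatives, 1274 kept their direction and their side of the threshold, 31 lost a call, 4 gained one and 61 changed sign, 0 of them with a call. The count of members called on fasting over both labels was 2 to 4 (4 with all mice) when 1 mouse was left out, 2 without mouse 257, 265, 277, 290 or 295, and 3 to 4 under the other alternatives. In KO-labelled livers it was 1 to 3 (3 with all mice) when 1 mouse was left out, 1 without mouse 284, 290 or 295, and 2 to 4 otherwise. In WT-labelled livers it was 0 in each, except 1 (*Tbx3*) with only the 2 groups compared. For the genotype label and the difference between responses it was 0 under every alternative. With 1 mouse left out, genes called of all tested on fasting ran from 1224 (without mouse 282) to 2770 (without mouse 319) in WT-labelled livers. In KO-labelled livers they ran from 1358 (without mouse 277) to 2631 (without mouse 319). Under the other alternatives, which include the looser threshold of 0.10, they ran from 2036 to 3570 and from 1970 to 3424. No scaling moved the median of all genes by more than 0.1 on the log2 scale. *Glul* between fasted labels (-0.001) was 0.006 with RLE scaling, 0.005 with upper-quartile scaling, 0.006 with DESeq2 and 0.013 with at least 10 counts in every mouse, and *Axin2* on fasting in WT-labelled livers (-0.005) was 0.011 with no count filter.

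Values not called that changed sign when 1 mouse was left out are given with their lowest and highest value. For fasting in WT-labelled livers they were *Axin2* (-0.177 to 0.273), *Lgr5* (-0.577 to 0.913) and *Rhbg* (-0.036 to 0.468). For fasting in KO-labelled livers they were *Lect2* (-0.315 to 0.202), *Lgr5* (-0.008 to 0.676), *Tbx3* (-0.285 to 0.310) and *Rnf43* (-0.144 to 0.569). For the genotype label in fed livers they were *Axin2* (-0.160 to 0.317), *Tbx3* (-0.008 to 0.541), *Rnf43* (-0.072 to 0.638), *Lgr5* (-0.591 to 0.087) and *Rhbg* (-0.603 to 0.035). For the genotype label in fasted livers they were *Glul* (-0.129 to 0.171), *Rnf43* (-0.451 to 0.202), *Lect2* (-0.394 to 0.133), *Slc1a2* (-0.058 to 0.186), *Lgr5* (-0.833 to 0.661), *Znrf3* (-0.095 to 0.039) and *Nkd1* (-0.296 to 0.040). For the difference between fasting responses they were *Lgr5* (-0.632 to 0.868). For fasting over both labels they were *Axin2* (-0.242 to 0.008), *Lgr5* (-0.143 to 0.617) and *Glul* (-0.025 to 0.225). For the genotype label over both feeding states they were *Rnf43* (-0.120 to 0.265), *Axin2* (-0.226 to 0.049), *Tbx3* (-0.273 to 0.062), *Nkd1* (-0.054 to 0.142), *Lgr5* (-0.533 to 0.227) and *Rhbg* (-0.029 to 0.288). No paired analysis was possible because the labels number mice individually and do not say which are littermates, so groups share no replicate numbers. With 3 mice a group the SE of a member's fasting change within a label ran from 0.14 (*Znrf3*) to 0.61 (*Lgr5*) on the log2 scale, which limits what could be detected. The cause of calls lost without a mouse was not tested.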
